A study of Mus musculus with 2 samples.

Results

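Smooth muscle actin (Acta2) and 9 further genes of the actin and SRF programme were examined in single mouse fibroblasts: Tagln, Cnn1, Cnn2, Myl9, Tpm1, Tpm2, Vcl, Srf and Actb. They were taken by symbol from the deposited table of raw counts, in which these 10 of 33757 features each had 1 row. The cells were of the line NIH3T3-Rev-VNP1-H2B-iRFP, made from NIH3T3, an established mouse embryonic fibroblast line. All cells carried a Venus reporter of Nr1d1, which encodes a clock repressor, and histone H2B joined to the near-infrared protein iRFP. All were grown to 95% confluency, received no synchronizing treatment, were detached with trypsin and were sorted live, 1 cell per well, into 2 plates of 384 wells for full-length FLASH-seq libraries. Whether the line is 1 clone is not given in the sources used here.

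The 768 cells fell into 8 sort gates of 96 cells, 4 Venus bins on each plate, numbered here from bin 1 (dimmest) to bin 4 (brightest). The order was set by the median recorded Venus fluorescence of each gate within its plate. Plate 1 held only the high H2B-iRFP sort and plate 2 only the low one, so plate and H2B-iRFP sort cannot be told apart. Each Venus bin took up an identical set of 6 adjacent well columns on the 2 plates, and so bin and well position cannot be told apart either. A filter on gene number, total count and mitochondrial share left 762 cells, 383 of plate 1 and 379 of plate 2. There was no untreated or control group. The design asked which transcripts follow the clock reporter, and the cells inside each gate show in addition how the 10 genes vary together.

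Actin exists in the cell as free monomers and as filaments. Free monomers hold the cofactors Mrtfa and Mrtfb in the cytoplasm, and when filaments form these cofactors enter the nucleus and join SRF, a DNA-binding factor. SRF binds CArG boxes, short A and T rich elements flanked by C and G pairs, and activates genes of the cytoskeleton, many of them present in the list above and Srf itself among them. In fibroblasts, Acta2 marks the contractile myofibroblast state, while Cnn1, Tagln and Myh11 are best known from smooth muscle. Cells detach and round up during trypsin treatment, which all cells here received.

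Promoter sequences were read from RefSeq for build GRCm38.p6, because CArG boxes are the element through which SRF acts. The table held 8 of the 10 genes; Tagln and Actb had no entry in it. In the 250 bases before the start, 4 of the 8 held a CArG box (CC, then 6 bases of A or T, then GG), namely Cnn2, Myl9, Vcl and Srf. Of all 32841 promoters in the table, 482 or 1.47% did so in a window of the same length. The motif reads alike on both strands. Acta2, Myl9, Srf and Tpm1 held a CArG-like match with 1 base changed, which 17.5% of all promoters also did, and Cnn1 and Tpm2 held neither. Windows of 4 genes are shown, because Acta2 and Cnn2 were the pair that varied most closely together, Vcl followed them less closely, and Srf is the factor itself. Capitals mark the CArG box in Cnn2 (starting 56 bases before the start), Vcl (227 bases) and Srf (82 and 62 bases), and the CArG-like matches in Acta2 (84 and 34 bases). The windows are chr19:34255374-34255623 on the minus strand, chr10:79988350-79988599 on the plus strand, chr14:20929148-20929397 on the plus strand and chr17:46556163-46556412 on the minus strand. A match describes the letters and does not show binding.
Acta2: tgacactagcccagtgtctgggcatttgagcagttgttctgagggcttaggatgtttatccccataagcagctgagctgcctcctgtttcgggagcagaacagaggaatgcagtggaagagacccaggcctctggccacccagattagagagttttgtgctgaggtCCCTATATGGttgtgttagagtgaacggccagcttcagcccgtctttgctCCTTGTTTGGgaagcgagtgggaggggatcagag
Cnn2: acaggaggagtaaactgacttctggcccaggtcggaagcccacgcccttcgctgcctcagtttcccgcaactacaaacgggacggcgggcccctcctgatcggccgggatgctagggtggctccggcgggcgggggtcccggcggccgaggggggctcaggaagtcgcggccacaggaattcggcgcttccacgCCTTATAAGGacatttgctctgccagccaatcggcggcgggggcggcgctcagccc
Vcl: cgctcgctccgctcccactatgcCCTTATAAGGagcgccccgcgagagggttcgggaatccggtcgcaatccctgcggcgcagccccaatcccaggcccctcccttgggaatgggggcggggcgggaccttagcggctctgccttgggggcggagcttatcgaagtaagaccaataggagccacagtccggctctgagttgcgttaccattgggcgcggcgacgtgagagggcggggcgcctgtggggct
Srf: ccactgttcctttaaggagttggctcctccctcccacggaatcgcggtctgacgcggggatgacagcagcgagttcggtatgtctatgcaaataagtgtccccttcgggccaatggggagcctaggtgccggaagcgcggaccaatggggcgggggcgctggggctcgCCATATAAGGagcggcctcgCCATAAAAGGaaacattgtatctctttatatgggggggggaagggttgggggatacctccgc

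The 8 sums of cells per plate and bin held 76042157 to 86612194 counts, and single cells held 151173 to 1618022. Mitochondrial genes took a median of 9.27% of the counts of a plate 1 cell and 7.42% of a plate 2 cell. Nr1d1 rose from 60.9 to 1266 CPM (the counts of a gene scaled to a common library total) between bins 1 and 4 of plate 1. On plate 2 it rose from 68.7 to 1169 CPM, on both plates in the direction of the recorded Venus fluorescence. For iRFP transcript, plate 1 gave 40.8 CPM and plate 2 gave 18.4 CPM, in the direction of the H2B-iRFP sort labels. All 8 fibroblast markers were detected, with a summed level of 20142 to 26457 CPM per sum. The 6 smooth muscle markers with a row summed to 31.8 to 49.7 CPM, most of it Smtn, and the defining Myh11 had 20 counts in all cells together. The other lists were pericyte (151 to 190 CPM, led by Pdgfrb and Cspg4), skeletal muscle (0.131 to 2.60 CPM), epithelial (3.38 to 7.74 CPM), endothelial (0.314 to 0.707 CPM) and immune markers (6.31 to 12.7 CPM). S phase genes summed to 252 to 479 CPM, lowest in bin 1 and highest in bin 4 of plate 1, and G2/M genes to 273 to 677 CPM.

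Across all cells the 10 genes spanned a wide range of levels. Compared per kilobase (kb) of exon, Actb, the main cytoplasmic actin, was highest at 1372 CPM per kb. Cnn2, a calponin that binds actin in many cell types, followed at 170 CPM per kb and lay clear of both neighbours, with 156 to 181 over the 8 sums. Acta2 stood at 70.1 CPM per kb (46.9 to 102), Tpm1 at 40.7 (35.5 to 49.6) and Tpm2 at 34.4 (31.3 to 38.1). Acta2 lay above Tpm1 and Tpm2 in 8 of 8 sums, while Tpm1 lay above Tpm2 in 7 of 8 and their ranges overlapped, so the order of these 2 is not resolved. Vcl, which links integrin adhesions to actin, stood at 6.96 CPM per kb (6.10 to 7.84) and Myl9, a regulatory light chain of myosin, at 6.03 (3.96 to 7.93), and Vcl was the higher in only 5 of 8 sums. Srf lay below them at 3.27 CPM per kb (2.92 to 3.71).

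Tagln (transgelin) and Cnn1, the calponin of smooth muscle, had the fewest counts. Tagln had 530 counts in all, 0.415 CPM per kb (0.145 to 0.695 over the sums), and at least 1 count in 166 of 762 cells, or 21.8%. Cnn1 had 38 counts in 12 cells (1.57%), 0.0216 CPM per kb. Myl9 was detected in 41.9% of cells, Srf in 90.6% and Acta2 in 90.7%, and the remaining 5 genes in over 99% of cells (Vcl 99.3%). In the reference annotation 67.9% of the Tagln exon length and 25.5% of that of Vcl are overlapped by genes on the other strand (Pcsk7 and Gm48529, and Ap3m1). Use of strand in counting, and of reads in such overlaps, is not given in the sources used here. The Tagln and Vcl counts, levels per kb and detection may thus hold reads of these partners or lack reads of their own. Neither was tested.

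Along the Venus bins none of the 10 genes was called, in either direction, by edgeR's quasi-likelihood test of a linear trend over the 8 sums with plate as a block (Benjamini-Hochberg adjusted p under 0.05). Of all 18430 genes tested, 15.4% were called, 6.78% rising and 8.64% falling toward bright Venus. In this edgeR fit none of the 10 had even an unadjusted p under 0.05, which 5494 of all genes had, and DESeq2 called 0 of the 10 as well. Trends are given below as log2 change per bin step with their standard error (SE). The Nr1d1 trend on this scale was 1.38 ± 0.02.

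**Figure D1:**
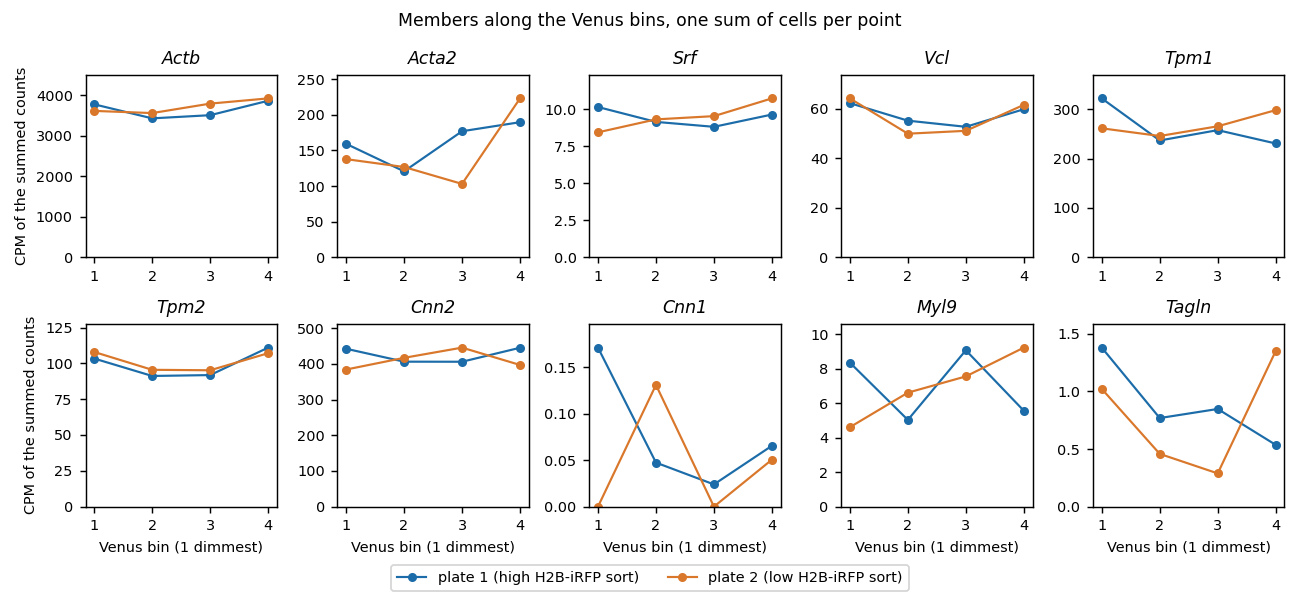
Level of each gene (vertical axes, CPM of the counts summed over cells, from 0) in the 4 Venus bins (horizontal axes), with plate 1 in blue and plate 2 in orange and 1 sum per point. Acta2 is highest in bin 4 on both plates. Vcl is lower in bins 2 and 3 than in bins 1 and 4 on both plates (for Tpm2 the bin 4 point of plate 2 rests on 1 cell). The lines of the plates cross in every panel.

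Srf was nearly level. It stood at 10.2, 9.15, 8.82 and 9.64 CPM in bins 1 to 4 of plate 1 and at 8.44, 9.32, 9.54 and 10.7 CPM on plate 2. The 2 plates thus ran in different orders, and the joint trend was 0.02 ± 0.04 (adjusted p 0.806, edgeR). The cofactors Mrtfa, at 34.0 to 46.5 CPM over the sums, and Mrtfb, at 54.6 to 64.6 CPM, had trends of 0.02 each with adjusted p-values of 0.701 and 0.523 (edgeR).

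Of the actins, Actb stood at 3771, 3425, 3503 and 3859 CPM on plate 1 and at 3609, 3555, 3788 and 3917 CPM on plate 2. Its bins stayed within 1.14-fold over all 8 sums, and its trend was 0.01 ± 0.02 (adjusted p 0.696, edgeR). Acta2 stood at 159, 121, 177 and 190 CPM on plate 1 and at 138, 127, 103 and 223 CPM on plate 2. Bin 4 was highest on both plates, as it was for Actb and for 18.9% of all genes tested, while bin 3 differed 1.72-fold between plates, more than bins 1 and 4 differed on plate 1. Without the highest cell of each sum bin 4 was still highest on both plates (168 and 193 CPM), and bin 3 stood at 134 and 91.3 CPM. The Acta2 trend was 0.14 ± 0.06, the largest of the 8 genes above 1 CPM, with an adjusted p of 0.174 (edgeR). It rested on bin 4: without that bin it was -0.06, and without bin 1 it was 0.35 (adjusted p 0.762 and 0.109, edgeR).

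The tropomyosins, which wrap along actin filaments, differed in pattern. Tpm1 stood at 322, 237, 258 and 231 CPM on plate 1 and at 261, 246, 265 and 298 CPM on plate 2. It was thus highest in bin 1 on plate 1 and in bin 4 on plate 2, and its joint trend was -0.05 ± 0.04 (adjusted p 0.508, edgeR). Tpm2 stood at 103, 91.2, 91.8 and 111 CPM on plate 1 and at 108, 95.5, 95.2 and 107 CPM on plate 2. Both outer bins of Tpm2 lay above both inner bins on each plate. On plate 2 this rested on 1 cell of bin 4 at 1318 CPM: without it bin 4 stood at 94.3 CPM, below both inner bins with all their cells. Without the highest cell of each sum, bins 2, 3 and 4 of plate 2 stood at 94.7, 93.4 and 94.3 CPM. The linear trend of Tpm2 was -0.0031 ± 0.017 (adjusted p 0.936, edgeR), and -0.03 ± 0.02 without the cell at 1318 CPM (adjusted p 0.489, edgeR).

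Vcl stood at 62.3, 55.2, 52.8 and 59.9 CPM on plate 1 and at 64.2, 49.98, 51.1 and 61.6 CPM on plate 2. Both outer bins lay above both inner bins on each plate, also when the cell of highest Vcl was left out of each sum, where plate 1 gave 60.7, 52.9, 52.0 and 58.9 CPM and plate 2 gave 61.8, 48.8, 49.96 and 59.0 CPM. This pattern, over all cells, was one of 5.20% of all genes tested. A test of any difference among the 4 bins, which does not ask for a linear order, gave an unadjusted p of 0.0095 and an adjusted p of 0.0744 for Vcl by edgeR's quasi-likelihood test. It gave 0.0382 and 0.159 for Acta2. For Tpm2 it gave 0.0108 and 0.0798, and without the cell at 1318 CPM 0.121 and 0.307. None of the 10 genes was called by this test, against 8.37% of all genes, and these 3 were the only ones of the 10 with an unadjusted p under 0.05. The linear trend of Vcl was -0.04 ± 0.02 (adjusted p 0.330, edgeR).

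The outer bins were also the outer well columns of the plates. Inside bin 1 the 3 columns nearest the plate edge gave 61.2 CPM of Vcl against 63.4 CPM in the 3 inner columns on plate 1, and 70.5 against 58.2 CPM on plate 2. Inside bin 4 the outer columns gave 52.7 against 66.4 CPM on plate 1 and 62.0 against 61.3 CPM on plate 2. The direction thus differed between these 4 comparisons, which hold 3 columns a side and do not compare bins.

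Of the calponins, Cnn2 stood at 443, 406, 406 and 445 CPM on plate 1 and at 384, 417, 446 and 397 CPM on plate 2. All 8 sums lay within 1.16-fold, with opposite shapes on the plates, and the trend was -0.0042 ± 0.027 (adjusted p 0.947, edgeR). Cnn1 had 13, 4, 2 and 5 counts in the bins of plate 1 and 0, 10, 0 and 4 on plate 2, too few for a direction. The 2 sums without a count allow up to 0.0379 and 0.0346 CPM of Cnn1 (3 counts each).

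Myl9 stood at 8.35, 5.03, 9.07 and 5.56 CPM on plate 1 and at 4.61, 6.61, 7.55 and 9.22 CPM on plate 2. Its values were in bin order on plate 2 and not on plate 1, and its joint trend was 0.09 ± 0.11 (adjusted p 0.640, edgeR). Bin 3 of plate 1 held 1 cell at 348 CPM. Without the highest cell of each sum plate 1 gave 6.87, 4.12, 4.59 and 3.93 CPM of Myl9. Plate 2 then gave 3.44, 5.45, 6.62 and 6.88 CPM. Tagln stood at 1.38, 0.769, 0.848 and 0.537 CPM on plate 1 and at 1.02, 0.458, 0.289 and 1.35 CPM on plate 2. Its trend was -0.11 ± 0.18 (adjusted p 0.751, edgeR), and a few cells decided its sums: outside bin 1 the top 10% of cells held 80.0 to 98.6% of its counts.

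The share of cells with a Tagln count was largest in bin 1 on both plates, seen only after the values had been examined. Its CPM was highest in bin 1 on plate 1 only. On plate 2 bin 4 held 1 cell at 47.4 CPM. Without the highest cell of each sum plate 1 gave 1.28, 0.371, 0.363 and 0.384 CPM. Plate 2 then gave 0.944, 0.344, 0.233 and 0.880 CPM, so bin 1 was highest on both, narrowly on plate 2. In cells thinned to 500000 counts each, 33.7% of bin 1 cells had a count on plate 1 (95% exact binomial interval 24.3 to 44.1%), then 15.6%, 8.42% and 18.1% in bins 2 to 4. On plate 2 the shares were 31.6% (22.4 to 41.9%), 10.5%, 6.25% and 17.2%. Unthinned they were 40.0, 17.7, 11.5 and 18.8% on plate 1 and 36.8, 17.0, 11.5 and 21.3% on plate 2. Bin 1 thus had the largest share on both plates, which held for 332 of 5888 genes (5.64%) detected on average in 5 to 50% of thinned cells. Its share was at least 1.5 times that of every other bin, as for 40 of these genes (0.679%). That cut was set with the values known, so the smaller figure does not measure rarity. These intervals cover counting error only, and no test was made since 2 plates and a pattern chosen from the data give none. The gene on the opposite strand, Pcsk7, stood at 17.3, 15.7, 16.3 and 16.3 CPM on plate 1 and at 16.8, 19.2, 15.8 and 15.6 CPM on plate 2. It was thus highest in bin 1 on plate 1 and in bin 2 on plate 2, and its part in the Tagln counts was not tested.

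**Figure D2:**
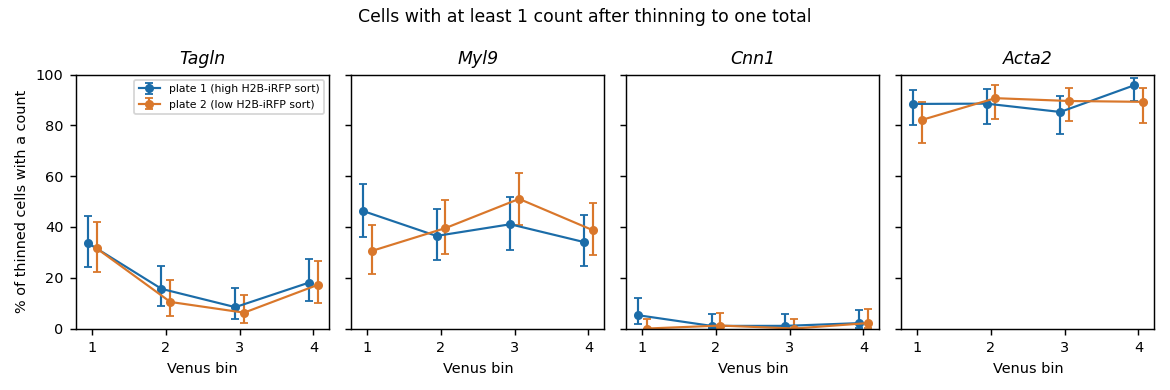
Share of cells with at least 1 count after thinning to 500000 counts (vertical axis, percent, from 0) in the 4 Venus bins (horizontal axis) for Tagln, Myl9, Cnn1 and Acta2, plate 1 in blue and plate 2 in orange, with 95% exact binomial intervals for counting error. Tagln stands at 33.7% and 31.6% in bin 1 and at 8.42% and 6.25% in bin 3. The plates cross for Myl9, Cnn1 and Acta2.

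Other genes of the pathway were taken from a list of contractile, adhesion and switch genes, of which 62 were tested. By the edgeR trend test 5 of the 62 rose (8.06%) and 11 fell (17.7%), against 6.78% and 8.64% of all genes tested. The median trend of the list was -0.02 against 0.0005 over all genes. Without TMM scaling, where 57.8% instead of 44.0% of all calls were rising, 7 of the list rose and 10 fell. DESeq2 called 24 of the list, where it called 3569 of all 18430 genes. Leaving out bin 1 gave 5 calls in the list and 1139 among all genes, and leaving out bin 4 gave 1 and 358.

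Of the 20 contractile and filament genes tested, Actg2 rose and Actg1, Actn1, Cnn3 and Myh10 fell. Myh10, nonmuscle myosin IIB, fell from 76.9 to 51.8 CPM between bins 1 and 4 of plate 1 and from 74.3 to 60.4 CPM on plate 2, a trend of -0.18 ± 0.03 (adjusted p 0.0063, edgeR). Cnn3, the third calponin and the only one called, had a trend of -0.11 ± 0.02 (adjusted p 0.0060, edgeR). Actg1, the other cytoplasmic actin, had a trend of -0.10 ± 0.03 (adjusted p 0.0377, edgeR), where Actb had 0.01. Actg2, the gamma actin of smooth muscle, is named although its level is under the minimum set for naming: it was detected in 14.6% of bin 4 cells on plate 1 and 21.3% on plate 2, against 1.05% and 4.21% in bin 1. Its trend was 1.10 ± 0.21 (adjusted p 0.0142, edgeR), on 1.75 and 8.05 CPM in bin 4, and other actins share much of its coding sequence.

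Of the 24 adhesion and crosslinking genes tested, Flnc and Pfn1 rose and Flna, Tgfb1i1, Wdr1 and Enah fell. Tgfb1i1 (Hic-5), an adhesion adaptor, had a trend of -0.15 ± 0.03, Flna (filamin A), which crosslinks actin filaments, -0.10 ± 0.02, and its muscle relative Flnc 0.09 ± 0.02. Their adjusted p-values by edgeR were 0.0121, 0.0131 and 0.0476. Of the 18 cofactor and switch genes, Rock2 and Limk1, kinases that favour filament formation, rose, and Elk3, Tgfbr1 and Smad7 fell. Smad7, an inhibitor of TGF-beta signalling, had a trend of -0.20 ± 0.04, the receptor Tgfbr1 -0.17 ± 0.03, and Elk3, a ternary complex factor that binds with SRF, -0.13 ± 0.02. Their adjusted p-values by edgeR were 0.0130, 0.0099 and 0.0063. These changes are small beside that of Nr1d1. All 9 genes given by the naming rule had the same sign on both plates, as had 69.4% of all genes tested. A call already favours genes that agree between the plates, so the shared sign is no separate support. Of the cell cycle lists, 10 of 15 S phase genes and 5 of 16 G2/M genes rose along the same bins and none fell. Among all genes tested 6.78% rose and 8.64% fell. Of the 8 fibroblast markers, Col1a1, Col1a2, Col3a1, Fn1 and Thy1 fell and Vim and S100a4 rose. The part of the cell cycle genes or of the fibroblast markers in these results was not tested.

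The 2 plates, and with them the H2B-iRFP sorts, differed by at most 1.14-fold in these genes on the deposited totals, apart from Cnn1. With 1 plate per sort there is no test, and the intervals given are 95% exact binomial intervals for counting error only. The ratio of plate 1 to plate 2 was 1.10 for Acta2 (1.08 to 1.11) and 1.03 for Cnn2. With TMM-scaled totals these ratios were 1.145 and 1.076. Acta2 gave 1.053 by the mean CPM over cells and 1.049 in thinned cells, so each alternative lay outside its interval. On the deposited totals the ratio was 1.01 for Vcl, 0.998 for Myl9 (0.852 in thinned cells) and 0.990 for Srf. It was 0.976 for Actb, 0.974 for Tpm1 and 0.977 for Tpm2, and these last 3 lay above 1 (1.02 each) once totals were scaled by TMM. Tagln gave 1.14 (0.958 to 1.36) and Cnn1 1.72 (0.854 to 3.59), on few counts, and in thinned cells Tagln gave 1.31. Among all genes 9.94% differed by more than 1.5-fold between plates and the median log2 ratio was -0.06. Within bins the Acta2 ratio ran from 0.850 to 1.72, so its overall ratio of 1.10 was smaller than its spread between bins. The ratio of Tagln ran from 0.397 to 2.94 and that of Myl9 from 0.603 to 1.81.

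Between single cells the picture changed, because Acta2 varied far more from cell to cell than between bins or plates. Its coefficient of variation (CV, the SD over the mean of CPM) was 1.99 as the median over the 8 plate and gate blocks, with a range of 1.70 to 2.57. Among 1832 genes with a mean of at least 100 CPM the median CV was 0.343, and Acta2 ranked second, after Slurp1 at 2.38. Over all cells the 10th percentile was 1.12 CPM, the median 44.0 and the 90th percentile 382 CPM, and the highest cell reached 3412 CPM. In each block the top 10% of cells held 51.5 to 69.1% of all Acta2 counts. Cells of low, middle and high Acta2 occurred in every bin of both plates.

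**Figure D3:**
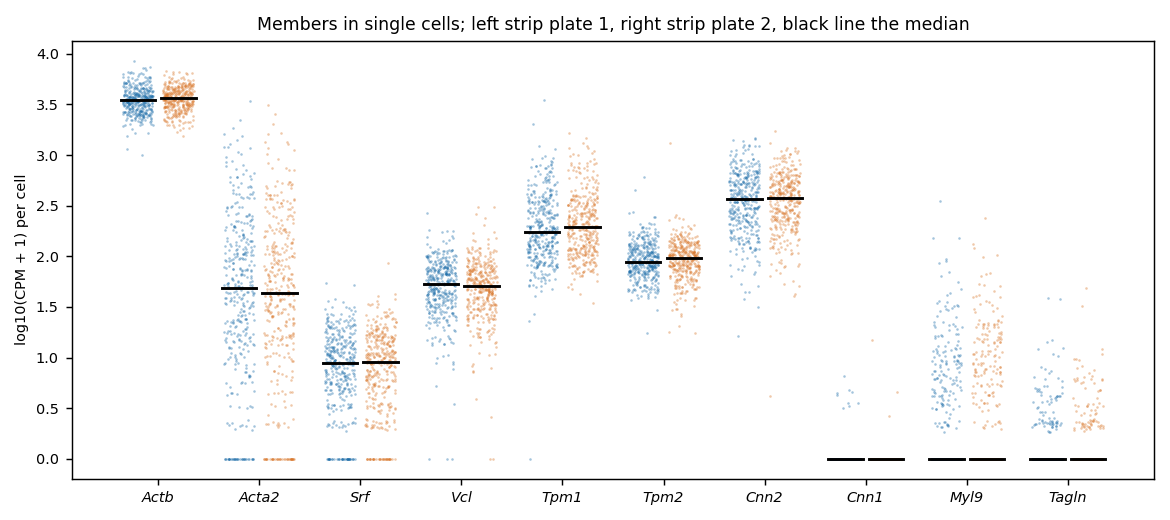
Level of each gene in single cells (vertical axis, log10 of CPM + 1) for the 383 cells of plate 1 (left strip, blue) and the 379 cells of plate 2 (right strip, orange), with the median as a black line. Acta2 spreads from 0 to 3412 CPM, Actb is narrow, and the medians of Cnn1, Myl9 and Tagln are at 0.

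The other abundant genes were less variable. Tpm1 had a median CV of 0.870 and ranked 29 of the 1832 abundant genes, Cnn2 had 0.644 and ranked 108, and Tpm2 had 0.397 and ranked 541. Actb, at 0.287 and rank 1395, lay below the median CV of these genes. Counting noise is larger at lower counts, and its part in these ranks was not tested. The widest CV of Tpm2, 1.24 in bin 4 of plate 2, coincided with 1 cell at 1318 CPM where the 90th percentile was 147 CPM. For Srf, Vcl, Myl9, Tagln and Cnn1, whose mean is below 100 CPM, counting noise adds to the CV and no rank is given.

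Inside gates the genes did not vary independently. Spearman correlations of CPM were taken over the cells of each plate and gate block (94 to 96 cells) and summarised by their median over the 8 blocks; all genes of a cell share its library, depth and total, so these are descriptions without a test. Acta2 and Cnn2 were the closest pair at 0.608 (0.439 to 0.687 over blocks), each being first of 10585 genes in the ranking of the other. Cnn2 and Actb followed at 0.521 (0.465 to 0.708), Acta2 and Tpm1 at 0.508 (0.327 to 0.549), and Acta2 and Actb at 0.470 (0.332 to 0.705). Acta2 was first in the rankings of Tpm1, Myl9 and Tagln as well, so it headed the list for 4 of the other 9 genes.

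**Figure D4:**
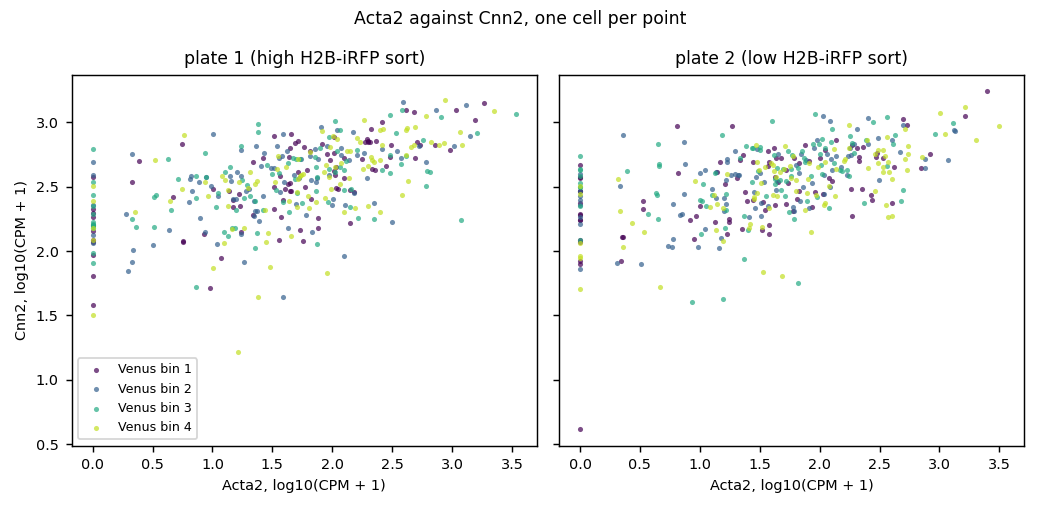
Cnn2 (vertical axis) against Acta2 (horizontal axis), both as log10 of CPM + 1, with 1 cell per point, plate 1 on the left and plate 2 on the right, coloured by Venus bin. Cells of all 4 bins lie along the same rising cloud, with a median within-gate Spearman correlation of 0.590 on plate 1 and 0.608 on plate 2.

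The rarely detected genes followed Acta2 in part. Acta2 and Myl9 correlated at 0.379 (0.229 to 0.45) and Acta2 and Tagln at 0.306 (0.142 to 0.457), positive in all 8 blocks. In cells with a Tagln count the median Acta2 level was 117 CPM on plate 1 and 114 CPM on plate 2, against 35.1 and 35.9 CPM in cells without one. For Myl9 the medians were 81.8 and 98.2 CPM with a count and 31.5 and 28.7 CPM without. The median depth of Tagln-positive cells was slightly lower than that of the other cells on both plates (810636 against 841571 counts on plate 1, 834866 against 863865 on plate 2). The few Cnn1 counts gave correlations near 0 with all other genes.

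Vcl, Tpm2 and Srf had lower correlations with Acta2. Vcl correlated with Cnn2 at 0.348 and with Actb at 0.308, and with Acta2 at 0.259 (-0.012 to 0.477). The 2 tropomyosins correlated at only 0.099 (0.001 to 0.236), and Tpm2 was closest to Actb at 0.296 (0.168 to 0.427). Srf transcript had a median of 0.095 with Acta2, 0.176 with Cnn2 and 0.164 with Actb. In the ranking of 10585 genes for Srf, Cnn2 came 5th, Actb 9th and Acta2 302nd, and Srf came 2118th for Acta2. The Cnn2 and Srf correlation was positive in 8 of 8 blocks and that of Srf and Actb in 6 of 8. Srf had 6077 counts over 762 cells, and in such sparse counts a weak correlation is no finding.

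**Figure D5:**
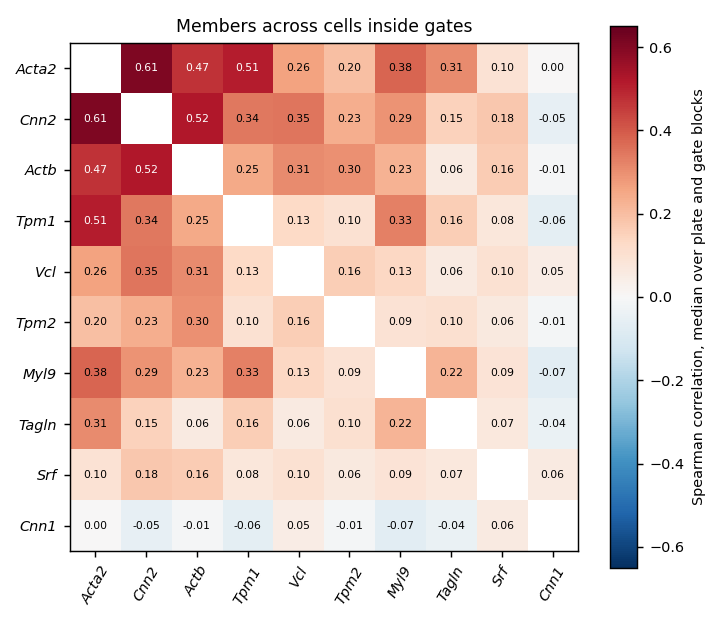
Median within-gate Spearman correlation of each pair of the 10 genes over the 8 plate and gate blocks (6 for Cnn1), red for positive and blue for negative. Acta2, Cnn2, Actb and Tpm1 form the strongest group, from 0.25 to 0.61, and the rows of Srf and Cnn1 are pale.

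Over all 45 pairs the median correlation was 0.15, and 22.2% of pairs exceeded 0.3. For the 7 genes detected in at least 50% of cells it was 0.234 over 21 pairs, with 33.3% above 0.3. Among all pairs of 10586 genes detected that often, the median was 0.006, the central 95% ran from -0.141 to 0.161, and 0.203% exceeded 0.3. Among the 1832 abundant genes the median was 0.014 and 2.81% of pairs exceeded 0.3. The 7 genes were closer on plate 1, with a median of 0.323, than on plate 2, with 0.183; this difference between 2 plates has no test.

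Other pathway genes also varied with Acta2. Of 15 contractile and filament genes detected often enough, 7 had a median correlation above 0.2 with Acta2, led by Myl6 (0.513), Tpm3 (0.384) and Tpm4 (0.287). Of 22 adhesion and crosslinking genes 9 did so, led by Pfn1 (0.423), Flna (0.408) and Fhl2 (0.282). Of 18 cofactor and switch genes none did: Mrtfa stood at -0.06, Mrtfb at 0.05 and Rhoa, the highest of them, at 0.147. Among all 10585 genes 4.41% exceeded 0.2 and the median was 0.014. The difference between these groups was not tested.

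The genes most like Acta2 outside the set, passing over features without a symbol and predicted or mitochondrial genes, were in order Myl6 (0.513), Amotl2 (0.477), Anxa5 (0.453), Sept11 (0.435), Pfn1 (0.423), Cbr2 (0.416), Cacna1a (0.415), Flna (0.408), Anxa3 (0.407) and Phgdh (0.401). Myl6 is the essential light chain of nonmuscle myosin, Pfn1 (profilin) binds actin monomers, Sept11 is a septin, and Anxa5 and Anxa3 are annexins. The lowest were Btg1 (-0.405), an antiproliferative gene, Appl2 (-0.375), Tgfbi (-0.369), an extracellular matrix gene, Angptl2 (-0.357) and Laptm4a (-0.339). For the mean rank of all 10 genes the most alike were Myl6 (0.554), Flna (0.548), Actg1 (0.506), Pfn1 (0.502) and Anxa3 (0.499), followed by Amotl2, Sept11, Anxa5, S100a11 and Ppa1 down to 0.436. The lowest were again Btg1 (-0.472) and Tgfbi (-0.398), then Steap3 (-0.396), Bmf (-0.378) and Appl2 (-0.374).

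Several properties of the cells moved with these genes inside gates. Acta2 correlated at 0.275 with the number of genes detected and at -0.313 with the mitochondrial share. It correlated at 0.146 with the mean log2(CPM + 1) of the S phase genes and at 0.181 with that of the G2/M genes. Cnn2 gave 0.298, -0.325, 0.223 and 0.202 for the same 4 measures, and Actb 0.174, -0.377, 0.250 and 0.221. Forward scatter, which grows with the size of a cell, gave 0.003 with Acta2 and 0.026 with Cnn2, and recorded Venus fluorescence gave -0.022 for both. Given total count and genes detected, the Acta2 and Cnn2 correlation was 0.571, and given the S phase and G2/M levels it was 0.569, against 0.608 without either. With mitochondrial genes left out of the totals it was 0.604. The correlation of Acta2 with Tpm1 likewise stayed between 0.411 and 0.533 in every alternative run.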

How the data were processed

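Full-length FLASH-seq libraries of 768 single cells were sequenced on 2 plates. The authors deposited an unnormalized table of whole-number read counts; per the submitters' processing notes, STAR 2.7.11a, SAMtools, bedtools, HTSeq and builds GRCm39 and mm39 were used. Annotation, strand and molecular identifiers are not given in the sources used here. Amplified reads of 1 molecule may be counted repeatedly, so intervals cover counting error only. The authors' deposited sorting record gave fluorescence and scatter intensity, the gate and the well. It was joined by plate and well, and each column name holds its own plate and well.

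A cell was kept with 1000 or more genes, a total no lower than 0.1 of its plate's median and no more than 25% mitochondrial counts; no doublet caller was run on wells that each received 1 cell. Plate totals were 320679261 and 321542588 counts, with medians of 835930 and 857229 per kept cell. Counts were summed per plate and bin and tested with edgeR 4.0.16 in R 4.3.3 (TMM, filterByExpr, quasi-likelihood F-test, 4 bins and plate, 3 residual degrees of freedom, Benjamini-Hochberg adjustment over all genes). Trend weights were 3 for outer and 1 for inner bins, divided by 10. Trends of 1 plate alone used log2 CPM with a prior count of 2. DESeq2 1.42.0 was an alternative. The 2 plates are the only replicates and also differ in sort. The plate block takes up their difference in level. P-values of the main fit therefore set a bin effect only against how far the bin profiles disagree between plates. Information on that spread is shared over genes. The test was checked on simulated data. Thinning took cells to 500000 counts and left out 12 cells.

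Symbols (24902 of 33757 features), exon lengths and overlaps came from a GRCm38 annotation, since the reference of the files' build was not used here, and no coordinates of the files are given. Features without a symbol held 1.07% of counts. Against other transcripts, words of 75 bases were shared by 1.58% of Actb and by none of the other 9 genes. Named pathway genes were, per group, the called genes with the 3 largest absolute trends at a mean log2 CPM of at least 3. The genes most and least like Acta2 were ranked among genes detected in at least 50% of cells; features without a symbol and predicted or mitochondrial genes were ranked but not named. The 10 genes and all lists were chosen with earlier results of these data known. Alternatives covered normalization, filters, the block, thinning, left-out plates and bins, and the form of correlation.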

Additional observations from a re-analysis of the deposited data

Results flagged for a closer look

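For 3 genes the Venus trend ran in opposite directions on the plates, on each beyond the standard error of the joint fit. The log2 trend of Myl9 was -0.12 per bin on plate 1 and 0.31 on plate 2, that of Tpm1 was -0.16 and 0.06, and that of Srf was -0.05 and 0.10. The difference was not tested, since each plate holds 1 H2B-iRFP sort and gives 1 value per bin. Of all genes tested, 5.45% met the same condition. Plate trends had opposite signs for 8 of the 10 genes, against 30.6% of all genes, and were more positive on plate 2 for 9 of the 10, against 51.1% of all genes. Some of these signs belong to trends within the SE of the joint fit, such as Cnn2 (-0.023 and 0.017) and Tpm2 (0.0059 and -0.011). The 10 genes come from the same cells and partly vary together, so they are not separate observations.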

How the results depend on the processing

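None of the 10 genes was called along the Venus bins under any alternative with a test (other scaling, DESeq2, no filter, stricter cells, no block, numeric bins, thinning, no mitochondrial genes, a bin left out). With the replicate block for plate left out, 1683 genes were called in place of 2843, and the block changed no call among the 10. Bins as a numeric term gave 1858 calls, leaving out bin 1 gave 1139 and leaving out bin 4 gave 358. The pathway list then had 5 calls without bin 1 and 1 without bin 4, against 16; fewer sums enter those fits. No paired analysis beyond this block was possible because each plate gives 1 sum per bin, and a lone plate gives values with no test. TMM-scaled totals turned the plate ratios of Tpm1, Tpm2 and Actb to 1.02 each, and the cause was not tested. The median pair correlation of all 10 genes was 0.185 as Pearson on log2(CPM + 10) and 0.111 given total count and genes detected, against 0.15. Leaving out a plate gave 0.142 and 0.162, and for the 7 often detected genes 0.183 and 0.323. The comparison of cells deep enough to thin but not thinned was chosen after seeing the data and gave 2846 calls. Leaving out the cell of highest Tpm2, also chosen after seeing the data, gave 2801 calls, none of them among the 10, and a Tagln trend of -0.19 in place of -0.11. Cnn1, Tagln and Srf had few counts, and every trend rests on 2 plates.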

Other observations

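Acta1, the actin of skeletal muscle, was examined after its values were seen because it belongs to the same actin family. Its Venus trend was 1.54 ± 0.47 (log2 per bin; edgeR adjusted p 0.0665), 0.44 on plate 1 and 2.16 on plate 2. Cells with an Acta1 count had a median Acta2 level of 160 CPM on plate 1 (46 cells) and 80.1 CPM on plate 2 (24 cells), against 43.2 and 41.4 CPM in the other cells. Cells with an Actg2 count had median Acta2 levels of 249 CPM (21 cells) and 178 CPM (41 cells), against 43.4 and 39.6 CPM. Whether reads of the abundant actins entered these low counts was not tested.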
